A study of Homo sapiens with 4 samples.

Results

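The genes of homologous recombination and of the Fanconi anaemia pathway were examined as a set of 44 genes, listed by name for their known roles in repair. The list was drawn up with earlier results of these data known. Each gene was represented by the array probe set, annotated to that gene alone, with the highest mean over the arrays. A probe set of this kind was found for 40 of the 44 genes, out of 19775 genes with such a probe set in the annotation used, and the other 4 genes were not analysed here. That annotation lists 42898 of the 54675 probe sets, so a gene without a listed probe set may still have one on the array. All 40 lay above the bound for dim genes, a mean level of 6.11 (log2), and were tested among 13842 genes.

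The RNA came from BT474, a human cell line established from a breast cancer whose ERBB2 gene is amplified. Per the labels, the cells were grown in DMEM and given fresh medium with vehicle or with 0.5 mM AICAR for 24 h, with 2 arrays per group and 4 in all. AICAR is a nucleoside that cells phosphorylate to an AMP mimic, which activates the energy-sensing kinase AMPK. The comparison asks how the transcripts of these repair genes stood after that treatment, in a line that serves as a model of ERBB2-amplified breast cancer and holds no other cell types of a tumour.

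Homologous recombination repairs broken DNA, and broken or stalled replication forks, by copying the intact sister chromatid. The ends are first trimmed to expose a strand, a recombinase is loaded on that strand and invades the sister, and the joined molecules are then dissolved or cut apart. The Fanconi pathway acts upstream of it at DNA crosslinks: a core complex with its E2 enzyme attaches ubiquitin to a clamp of paired proteins, which brings nucleases to the crosslink. Many of these genes are transcribed mainly in cycling cells, in S and G2 phase, when a sister chromatid is present.

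Arrays of the same group correlated at r = 0.997 over all probe sets and arrays of different groups at 0.994 to 0.995, and the array medians lay between 6.37 and 6.40 (log2). The 7 markers of BT474 and other luminal cells, ERBB2, ESR1, GATA3, KRT8, KRT18, KRT19 and EPCAM, stood between 10.38 and 14.25 on every array. At its probe set of highest mean ESR1 was lower with AICAR (log2 difference -0.31, limma adjusted p = 0.0411). Of the 9 probe sets of ESR1 5 were negative, and their mean over all 9 differed by -0.04 (limma adjusted p = 0.773), which did not pass. Of 7 measured markers of stromal, endothelial and blood cells, PTPRC, COL1A2, COL3A1 and ACTA2 were under the dim bound, and PECAM1, VWF and COL1A1 were above it. COL1A1 stood at 9.95 and 10.08 with vehicle and 9.25 and 9.52 with AICAR (log2 difference -0.63, limma adjusted p = 0.0209). Of its 5 probe sets 4 were negative, and the mean over all 5 differed by -0.23 (limma adjusted p = 0.0727), which did not pass. The smallest p that permuting 2 against 2 arrays can give is 0.333 (exact test), so the tests are those of limma, fitted across all 13842 genes. The labels do not say whether replicate arrays stem from separate cultures, and the p-values then reflect the spread between these samples alone, which may be technical.

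After AICAR, 7 of the 40 repair genes were lower and 1 was higher at a limma adjusted p under 0.05. Over all genes tested 5.19% were lower, 4.63% were higher and 9.82% changed in either direction. Among the repair genes 17.5% were lower and 2.50% were higher. Because the set was chosen with earlier results of these data known, the gap is a description and not a test. At an unadjusted p under 0.05, 11 of the 40 were lower and 1 higher, beside 13.3% and 12.8% of all genes tested. The distance from all genes was narrower in both of the following fits: with a trend and robust variances 8 of 40 (20%) were lower, beside 9.82% of all genes, and with the dim filter at the 50th percentile 6 of 36 (16.7%), beside 10% (990 of 9888). In those fits 1 repair gene was higher, beside 8% (1107 of 13842) and 8.28% of all genes. The genes that fell were RAD51AP1 and RAD54B, which help strand invasion, BARD1, the partner of BRCA1, the resection enzyme DNA2, the Fanconi core subunits FANCB and FANCG, and the Fanconi E2 enzyme UBE2T. The gene that rose was FAN1, a nuclease of crosslink repair. The rise of FAN1 rested on 1 of its 3 probe sets. The counts depended on single arrays: RAD51AP1 alone passed without vehicle replicate 1 and without vehicle replicate 2, while 5 genes were lower without AICAR replicate 1 (RAD51AP1, RAD54B, FANCB, FANCG and UBE2T) and 4 without AICAR replicate 2 (RAD51AP1, RAD54B, BARD1 and GEN1). FAN1 passed when either AICAR array was left out and did not pass when either vehicle array was.

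Over the 40 genes, 31 differences were negative and 9 positive, with a median of -0.10 on the log2 scale, beside a median of 0.01 over all genes tested, of which 47.6% were negative. After quantile normalization of the deposited values 23 of the 40 were negative, with the same 8 genes past the threshold. That scaling also turned the split of all calls from 718 lower and 641 higher to 624 and 854. In 17 of the 40 genes both AICAR arrays lay below both vehicle arrays, and in 6 both lay above, while the values of the other 17 overlapped. The shares over all genes tested were 28.0% for AICAR below and 28.5% for AICAR above. A lower share of cells with these transcripts and less RNA per cell cannot be told apart in bulk RNA.

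**Figure D1:**
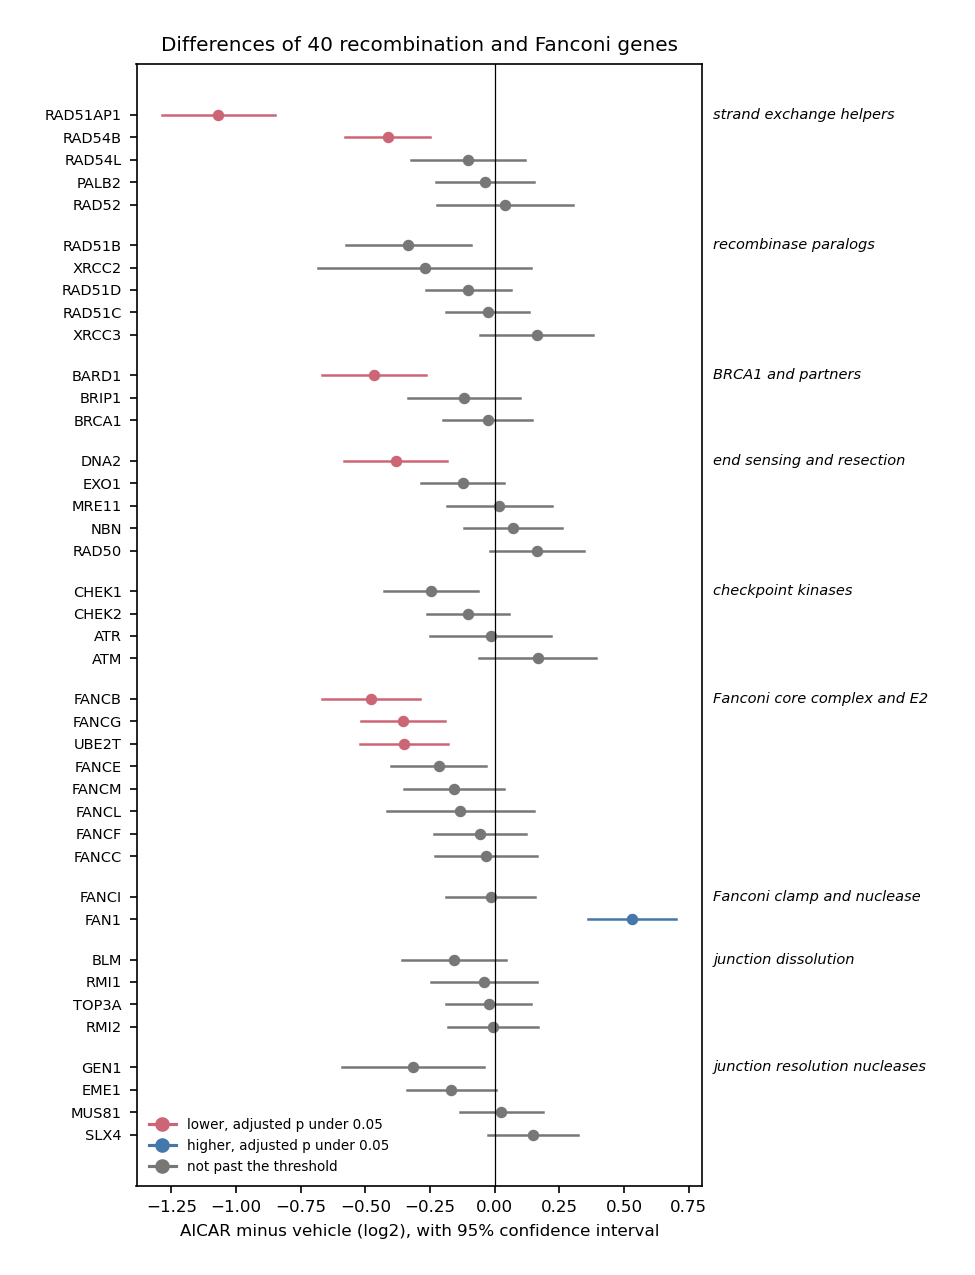
Difference between AICAR and vehicle (log2, x axis) for each of the 40 repair genes, grouped by role, with the 95% confidence interval of the limma fit as a bar. The 7 genes that passed the threshold as lower lie between -1.07 and -0.35, FAN1 is the only one higher, at 0.53, and most of the others lie between -0.3 and 0.2.

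RAD51AP1 showed the largest change of the set. It encodes a DNA-binding protein that helps the recombinase form the joint with the sister duplex. Its only probe set read 10.02 and 9.95 (log2) in the vehicle arrays and 8.81 and 9.02 in the AICAR arrays. Both AICAR values were thus below both vehicle values, and the gap between the groups was larger than that between the arrays of either group. The gene was 2.10-fold lower (log2 difference -1.07, SE 0.0903, 95% confidence interval -1.29 to -0.85, limma adjusted p = 0.00574), the 8th lowest difference of the 13842 genes. It passed in each of the 11 other fits, with differences from -1.17 to -0.96.

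RAD54B, a DNA motor protein of the strand invasion step, read 9.72 and 9.67 with vehicle and 9.26 and 9.30 with AICAR (log2). The AICAR arrays were both lower, and the arrays of each group lay close together. It was 1.33-fold lower (log2 difference -0.41, SE 0.0681, limma adjusted p = 0.0199). Its relative RAD54L, which does the same kind of work, read 8.07 and 8.13 with vehicle and 7.89 and 8.11 with AICAR, so that the groups overlapped. For RAD54L the log2 difference was -0.10 (adjusted p = 0.523), with a 95% confidence interval of -0.32 to 0.12. Whether the 2 relatives differ from each other in response was not tested.

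The remaining genes of this step did not pass. PALB2, the bridge between BRCA1 and the loading of the recombinase, read 9.29 and 9.14 with vehicle and 9.16 and 9.19 with AICAR, a log2 difference of -0.04 (95% confidence interval -0.23 to 0.15, adjusted p = 0.790). RAD52, which anneals complementary strands, differed by 0.04 (-0.22 to 0.30), and its 4 probe sets ranged from -0.16 to 0.28. Of the 5 measured genes of the strand exchange step, 2 fell and 0 rose (limma), beside 5.19% and 4.63% of all genes tested. The counts at an unadjusted p under 0.05 were the same, beside 13.3% and 12.8% of all genes.

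The stretches just before the start are shown for the 5 genes that fell and have a promoter in the RefSeq table, and for FAN1, the gene that rose, so that genes that moved together can be compared. Each is the 120 bases before the start site, read on the strand of the gene from RefSeq (GRCh38.p14). Capitals mark the letters CCAAT, or ATTGG on the opposite strand, which the factor NF-Y is known to bind.
RAD51AP1, chr12:4538770-4538889, plus strand: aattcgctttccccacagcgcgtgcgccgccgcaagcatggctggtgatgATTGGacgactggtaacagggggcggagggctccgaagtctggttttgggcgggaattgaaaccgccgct
UBE2T, chr1:202341937-202342056, minus strand: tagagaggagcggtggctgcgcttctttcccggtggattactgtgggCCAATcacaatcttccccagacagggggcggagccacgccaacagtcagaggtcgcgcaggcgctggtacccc
BARD1, chr2:214809684-214809803, minus strand: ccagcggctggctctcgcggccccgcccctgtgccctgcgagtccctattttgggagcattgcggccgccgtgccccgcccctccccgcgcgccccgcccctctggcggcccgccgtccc
FANCB, chrX:14873070-14873189, minus strand: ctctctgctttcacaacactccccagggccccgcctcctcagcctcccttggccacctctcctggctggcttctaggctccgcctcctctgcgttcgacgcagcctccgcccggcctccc
FANCG, chr9:35079943-35080062, minus strand: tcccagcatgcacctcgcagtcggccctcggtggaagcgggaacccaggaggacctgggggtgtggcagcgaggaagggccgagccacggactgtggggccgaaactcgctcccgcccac
FAN1, chr15:30903732-30903851, plus strand: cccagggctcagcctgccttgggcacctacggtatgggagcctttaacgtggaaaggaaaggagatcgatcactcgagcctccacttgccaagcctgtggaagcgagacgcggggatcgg
The stretch of RAD51AP1 holds 1 such match, which begins 70 bases before the start, and that of UBE2T holds 1, which begins 73 bases before it. The stretches of BARD1, FANCB, FANCG and FAN1 hold 0. FAN1 has another start in the table, whose stretch is not shown and also holds 0.

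Motifs of 4 kinds were searched on both strands in the window from 250 bases before to 50 bases after the start. The search covered the 35 repair genes with a promoter in the RefSeq table. A gene with more than 1 start there was counted when any of its windows held the letters. The NF-Y letters CCAAT were found for 17 of the 35 genes (48.6%), beside 42.1% of 15843 protein-coding genes. Letters of the kind bound by E2F factors, which drive S phase genes (TTTGGCGC, TTTCGCGC, TTTCCCGC or TTTGCCGC), were found for 5 of the 35 (14.3%), beside 5.40%. The 5 were EXO1, FANCC, GEN1, RMI1 and XRCC2, and none of them passed the threshold, though GEN1 did with the mean of its probe sets. EXO1, FANCC, GEN1 and RMI1 have more than 1 start in the table, and not all of their windows held the letters. The letters of the cell cycle element CHR (TTTGAA) were found for 4 of the 35 (11.4%), beside 15.8%, and the element AAGGTCA, bound by ERR receptors, for 3 (8.57%), beside 4.26%. Among the 5 genes that fell and have a promoter in the table, 2 held CCAAT (40%, beside 50% of the 30 that did not fall). Of the same 5, 1 held TTTGAA, and 0 held AAGGTCA or the exact E2F letters listed above in this window. Shorter or other forms of the E2F letters were not searched, so their absence is not shown. All counts are of matching letters and show no binding.

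The paralogs of the recombinase form small complexes that stabilise it on DNA. Of them 0 of 5 passed the threshold in either direction (limma), beside 9.82% of all genes tested. At an unadjusted p under 0.05, 1 member was lower and 0 were higher, beside 13.3% and 12.8% of all genes. That member was RAD51B, at 6.86 and 7.03 (log2) with vehicle and 6.72 and 6.51 with AICAR. Its groups did not overlap, and it differed by -0.33 (95% confidence interval -0.58 to -0.09, adjusted p = 0.0924). Its 3 other probe sets were dimmer, at means from 5.33 to 5.67, and differed by -0.08, -0.05 and 0.05.

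XRCC2 had the widest spread of the set, with 7.91 and 8.39 in the vehicle arrays and 8.03 and 7.72 in the AICAR arrays. Its difference of -0.27 (log2) had an SE of 0.170 and a 95% confidence interval of -0.68 to 0.14. RAD51C differed by -0.03 (-0.19 to 0.13), RAD51D by -0.10 (-0.27 to 0.06) and XRCC3 by 0.16 (-0.06 to 0.38). The intervals of these 4 genes held 0.

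BRCA1 and BARD1 form a ubiquitin ligase that promotes resection and the loading of the recombinase. Of the 2 partners, BARD1 passed the threshold and BRCA1 did not, at their probe sets of highest mean. BARD1 stood at 10.17 and 10.15 (log2) with vehicle and at 9.60 and 9.79 with AICAR. Both AICAR values were lower than both vehicle values, and the AICAR arrays lay further apart than the vehicle arrays. BARD1 was 1.38-fold lower (log2 difference -0.47, SE 0.0832, limma adjusted p = 0.0235). Its second probe set gave -0.43 and its dimmest -0.07, and with the mean of the 3 the difference was -0.32 (adjusted p = 0.0629), which did not pass.

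BRCA1 itself read 9.45 and 9.46 with vehicle and 9.47 and 9.38 with AICAR. Those groups overlapped, and the log2 difference was -0.03 (95% confidence interval -0.20 to 0.14, adjusted p = 0.841), with -0.07 at its other probe set. BRIP1, a helicase that binds BRCA1, read 9.14 and 9.11 with vehicle and 8.90 and 9.12 with AICAR and differed by -0.12 (-0.34 to 0.10, adjusted p = 0.451). The interval of BARD1, -0.67 to -0.27, lay below that of BRCA1, and the difference between the 2 genes was not tested.

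**Figure D2:**
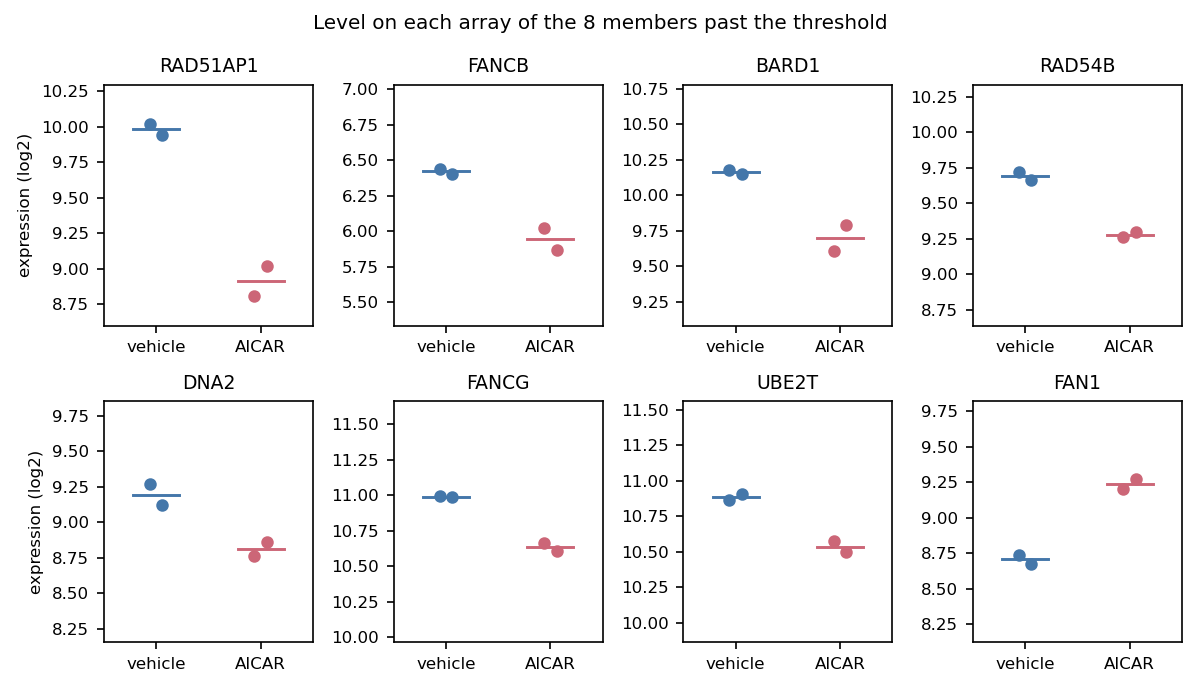
Level (log2 expression, y axis, with the same span in each panel) on each of the 4 arrays for the 8 repair genes past the threshold; points are arrays and bars are the means of 2. In each of the 7 panels of genes that fell both AICAR points lie below both vehicle points, most widely for RAD51AP1, and in the FAN1 panel both lie above.

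Resection begins with the MRE11, RAD50 and NBN complex, which holds the broken ends, and is extended by EXO1 or DNA2. DNA2, a nuclease and helicase that also trims stalled forks, read 9.27 and 9.12 (log2) with vehicle and 8.77 and 8.86 with AICAR. The groups did not overlap, and the gene was 1.30-fold lower (log2 difference -0.38, SE 0.0824, limma adjusted p = 0.0384). It passed in 5 of 11 other fits, the fewest of the 8 genes, and did not pass without the filter on dim genes (adjusted p = 0.0727), with the replicate number as a block (0.0504), or without any 1 of the 4 arrays (0.0660 to 0.216).

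EXO1, the exonuclease of the other route, read 8.97 and 8.96 with vehicle and 8.82 and 8.86 with AICAR. It was lower on both AICAR arrays, by 0.124 on the log2 scale, and did not pass (95% confidence interval -0.28 to 0.04, adjusted p = 0.295). The end-holding complex had 3 positive differences: RAD50 at 0.16 (-0.02 to 0.35, adjusted p = 0.235), NBN at 0.07 (-0.12 to 0.26, adjusted p = 0.620) and MRE11 at 0.02 (-0.18 to 0.22, adjusted p = 0.917). RAD50 read 8.71 and 8.58 with vehicle and 8.83 and 8.78 with AICAR, and its 3 probe sets ran from -0.22 to 0.16. Those of MRE11 ran from -0.29 to 0.12. NBN read 11.25 and 11.28 with vehicle and 11.26 and 11.41 with AICAR, and MRE11 read 8.79 and 8.71 with vehicle and 8.68 and 8.85 with AICAR. The groups of NBN and of MRE11 overlapped, and those of RAD50 did not. In all, 1 of 5 resection genes fell and 0 rose (limma), beside 5.19% and 4.63% of all genes tested. The counts at an unadjusted p under 0.05 were also 1 and 0, beside 13.3% and 12.8% of all genes.

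Of the 4 checkpoint kinases 0 passed in either direction (limma), beside 9.82% of all genes tested. At an unadjusted p under 0.05, 1 was lower and 0 were higher, beside 13.3% and 12.8% of all genes. ATM, which responds to broken ends, read 8.22 and 8.24 with vehicle and 8.28 and 8.52 with AICAR, a log2 difference of 0.17 (adjusted p = 0.320, 95% confidence interval -0.06 to 0.39). The 6 probe sets of ATM ran from -0.10 to 0.24. ATR, which responds to exposed strands at forks, read 9.79 and 9.69 with vehicle and 9.61 and 9.85 with AICAR and differed by -0.02 (-0.25 to 0.22, adjusted p = 0.939).

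CHEK1, the kinase that ATR activates, was the lower gene, at 9.35 and 9.38 with vehicle and 9.05 and 9.18 with AICAR (log2 difference -0.25, 95% confidence interval -0.43 to -0.07, adjusted p = 0.0969). With a trend and robust variances in the moderation it passed (adjusted p = 0.0360). Of its 4 probe sets 2 gave -0.25 and -0.24, and the other 2 gave 0.08 and 0.08. CHEK2, the kinase that ATM activates, differed by -0.10 (-0.26 to 0.06, adjusted p = 0.378).

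All 8 measured genes of the Fanconi core complex and its E2 enzyme had negative differences at their probe sets of highest mean, with a median of -0.19 (log2). Over all genes tested 47.6% were negative. Of them 3 fell and 0 rose (limma), beside 5.19% and 4.63% of all genes tested. At an unadjusted p under 0.05, 4 were lower and 0 higher, beside 13.3% and 12.8% of all genes. After quantile normalization the 3 genes that fell still passed, and FANCC turned positive, at 0.01. With the mean of all probe sets FANCF turned positive, at 0.02, and FANCM stood at -0.01, while the others tested in that fit stayed negative.

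FANCG, a scaffold subunit of the core, read 11.00 and 10.99 (log2) with vehicle and 10.67 and 10.61 with AICAR. The arrays of each group nearly coincided, and the gene was 1.28-fold lower (log2 difference -0.35, SE 0.0677, limma adjusted p = 0.0277). UBE2T, the E2 enzyme that hands ubiquitin to the core's ligase subunit FANCL, read 10.86 and 10.91 with vehicle and 10.58 and 10.49 with AICAR. It too was 1.28-fold lower without overlap (log2 difference -0.35, SE 0.0705, limma adjusted p = 0.0313). Without the filter on dim genes FANCG (adjusted p = 0.0594) and UBE2T (0.0652) did not pass.

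FANCB, a subunit that holds the ligase module together, was the dimmest gene that passed. It read 6.44 and 6.41 with vehicle and 6.02 and 5.87 with AICAR, so that its AICAR values lay below the dim bound of 6.11 and only its vehicle values kept its mean above it. The difference was -0.48 (log2, SE 0.0786, limma adjusted p = 0.0199, and 0.0412 without that filter). All 4 of its probe sets were negative, from -0.67 to -0.05.

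FANCE, which contacts the clamp, read 8.47 and 8.42 with vehicle and 8.29 and 8.17 with AICAR. It differed by -0.22 (95% confidence interval -0.40 to -0.03, adjusted p = 0.134), without overlap of the groups. FANCM, the translocase that anchors the core on DNA, differed by -0.16 (-0.35 to 0.03), the ligase FANCL by -0.13 (-0.42 to 0.15), FANCF by -0.06 (-0.23 to 0.12) and FANCC by -0.03 (-0.23 to 0.16). The first AICAR array was the lowest of the 4 for FANCL, at 8.73, and the second was the highest, at 9.08, and its SE was 0.118.

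FANCI, 1 partner of the clamp that the core modifies, read 10.26 and 10.29 with vehicle and 10.21 and 10.31 with AICAR, a log2 difference of -0.02 (95% confidence interval -0.19 to 0.16, adjusted p = 0.912). FAN1, the nuclease that binds the modified clamp, rose. Its probe set read 8.74 and 8.67 with vehicle and 9.20 and 9.27 with AICAR, a 1.44-fold increase (log2 difference 0.53, SE 0.0709, limma adjusted p = 0.0124). Its other 2 probe sets read nearly the same in both groups and differed by 0.02 and -0.03. With the mean of the 3 the difference was 0.17 (adjusted p = 0.132), which did not pass. The probe set that rose is of the array maker's x class, whose probes may also bind other transcripts; its part in the rise was not tested.

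**Figure D3:**
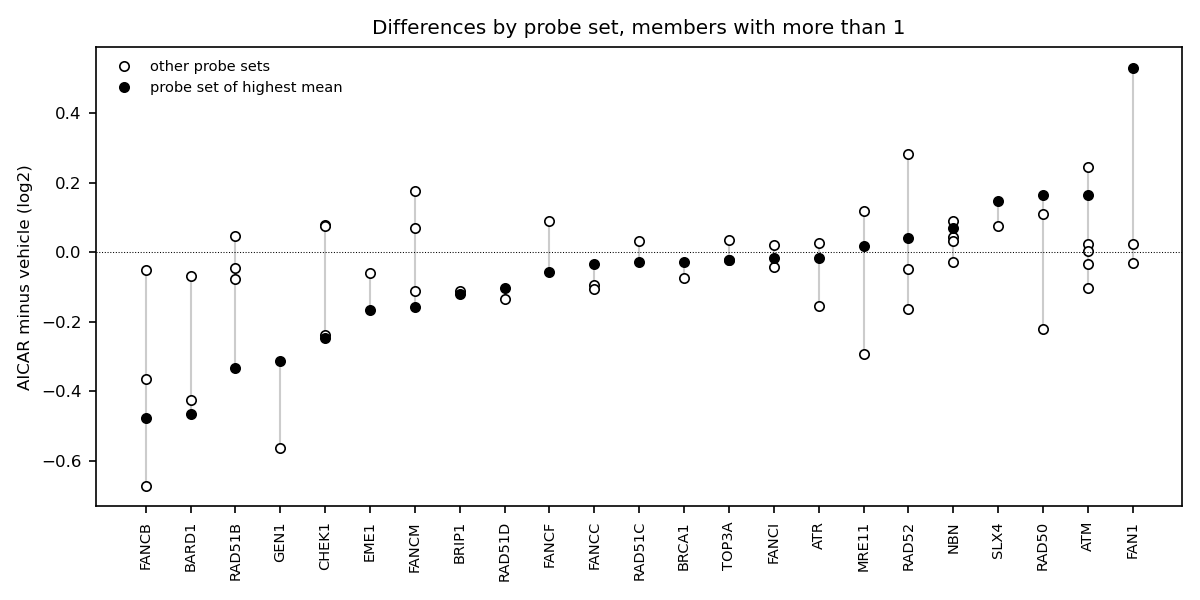
Difference between AICAR and vehicle (log2, y axis) of every probe set of the 23 repair genes with more than 1; filled points are the probe sets of highest mean, which the comparison used, and open points the others. The points of FANCB, BARD1 and GEN1 all lie below 0, while the filled point of FAN1, at 0.53, stands apart from its open points at 0.02 and -0.03.

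The complex that dissolves joined chromosomes is made of the helicase BLM, the topoisomerase TOP3A and the subunits RMI1 and RMI2. Of its 4 genes 0 passed the threshold in either direction (limma), beside 9.82% of all genes tested. At an unadjusted p under 0.05, 0 were lower and 0 higher, beside 13.3% and 12.8% of all genes. BLM read 8.69 and 8.54 with vehicle and 8.40 and 8.51 with AICAR (log2 difference -0.16, adjusted p = 0.294, 95% confidence interval -0.36 to 0.05). TOP3A differed by -0.02 (-0.19 to 0.14), RMI1 by -0.04 (-0.25 to 0.16) and RMI2 by -0.01 (-0.18 to 0.17). The groups of these 3 genes overlapped.

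Of the nucleases that cut joined chromosomes 0 of 4 passed in either direction (limma), beside 9.82% of all genes tested. At an unadjusted p under 0.05, 1 gene was lower and 0 were higher, beside 13.3% and 12.8% of all genes. GEN1, which cuts branched DNA junctions, was that gene, at 8.11 and 8.11 with vehicle and 7.63 and 7.96 with AICAR (log2 difference -0.31, 95% confidence interval -0.59 to -0.04, adjusted p = 0.144). Its second, dimmer probe set read 4.27 and 4.25 with vehicle and 3.55 and 3.84 with AICAR, and with the mean of both GEN1 passed (log2 difference -0.44, adjusted p = 0.0481). It also passed without AICAR replicate 2 (adjusted p = 0.0391). EME1 differed by -0.17 (-0.34 to 0.00, adjusted p = 0.202), its partner MUS81 by 0.02 (-0.14 to 0.18) and SLX4, the scaffold for several nucleases, by 0.15 (-0.03 to 0.32).

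Of the 40 genes 17 had a single probe set, among them 5 of the 8 that passed: RAD51AP1, RAD54B, DNA2, FANCG and UBE2T. Of the 23 genes with more than 1 probe set, 9 had all differences of 1 sign and 14 had both signs.

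A list of 40 other genes of recombination and the Fanconi pathway, of which 36 were tested, had 2 lower and 3 higher genes (limma), with a median of -0.06 on the log2 scale. The shares were 5.56% lower and 8.33% higher, beside 5.19% and 4.63% of all genes. At an unadjusted p under 0.05, 10 of the 36 were lower and 8 higher, beside 13.3% and 12.8% of all genes. POLQ, the polymerase of an alternative end-joining route, fell by 0.485 on the log2 scale (adjusted p = 0.0223), and UHRF1, a chromatin protein also linked to crosslink sensing, fell by 0.523 (adjusted p = 0.0109). SFR1, a cofactor of the recombinase, was higher by 0.57 (adjusted p = 0.0193), the repair nuclease subunit ERCC1 by 0.55 (adjusted p = 0.0106) and ABRAXAS1, a scaffold of a BRCA1 complex, by 0.49 (adjusted p = 0.0137). With a trend and robust variances 7 of these genes were lower and 6 higher, beside 9.82% and 8% of all genes.

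End joining is the route that needs no sister chromatid. Of its 13 tested genes, which leave out POLQ, 0 passed the threshold in either direction (limma), beside 9.82% of all genes tested. At an unadjusted p under 0.05, 2 were lower and 1 higher, beside 13.3% and 12.8% of all genes. The median of these 13 genes was -0.10. DCLRE1C had their largest difference, -0.24 (adjusted p = 0.159). With a trend and robust variances 1 of them, XRCC5, was lower, beside 9.82% of all genes. XRCC5 also passed with the mean of its 3 probe sets, all of them negative (log2 difference -0.32, limma adjusted p = 0.0365). In that fit 692 of 13842 genes were lower. Of 13 genes of base excision and mismatch repair 1 fell, the uracil glycosylase UNG (log2 difference -0.39, adjusted p = 0.0423), and 0 rose. The shares of all genes were 5.19% and 4.63%. At an unadjusted p under 0.05, 1 of the 13 was lower and 1 higher, beside 13.3% and 12.8% of all genes. Their median was 0.04. The differences between these lists and the repair set were not tested.

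Markers of S phase and mitosis moved in the same comparison. Of 22 such genes 11 were lower and 0 higher (limma), beside 5.19% and 4.63% of all genes tested. At an unadjusted p under 0.05, 13 were lower and 1 was higher, beside 13.3% and 12.8% of all genes. The higher gene was CDT1 (log2 difference 0.24, limma adjusted p = 0.172). The median of the 22 genes was -0.32 (log2). CDC20 fell by 0.862 (adjusted p = 0.00813), CDC6 by 0.667 (adjusted p = 0.00953), MCM5 by 0.64 (adjusted p = 0.0124) and CCNB1 by 0.59 (adjusted p = 0.00874), while PCNA differed by -0.10, MKI67 by 0.13 and E2F1 by 0.13 without passing. Of the 4 probe sets of MKI67 the other 3 were negative, down to -0.84, and their mean with it was -0.36 (adjusted p = 0.0513). The log2 of the summed levels of the 22 genes was 15.55 and 15.61 with vehicle and 15.23 and 15.28 with AICAR; that of the 40 repair genes was 14.88 and 14.86, and 14.72 and 14.77. None of the 22 markers was under the dim bound. Their part in the lower levels of the repair genes was not tested.

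**Figure D4:**
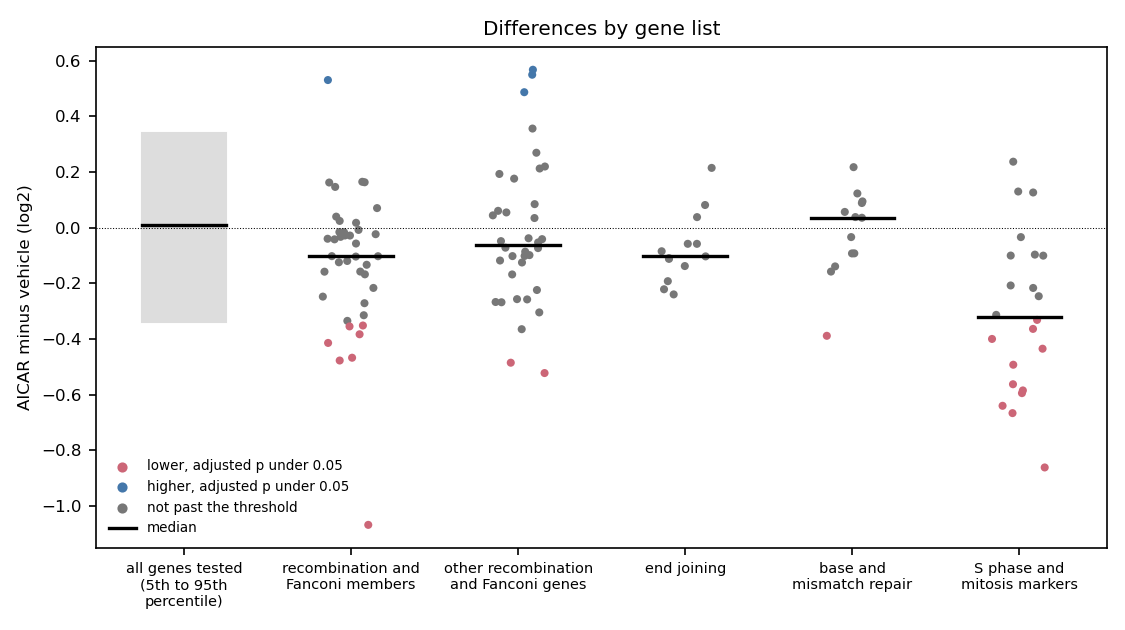
Difference between AICAR and vehicle (log2, y axis) for the genes of 5 lists, with all genes tested as a grey bar from their 5th to their 95th percentile; each point is a gene, coloured where it passed the threshold, and black lines are medians. The medians are -0.10 for the 40 repair genes, -0.06 for other recombination and Fanconi genes, -0.10 for end joining, 0.04 for base and mismatch repair and -0.32 for the S phase and mitosis markers.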

How the data were processed

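Biotin-labelled total RNA was measured on Affymetrix arrays, per the labels' protocols. The authors deposited 1 normalized log2 value per probe set and array; per the submitters' processing notes they used Affymetrix Expression Console. Not given in the sources used here are its version, the summarization and any background correction. If background was not removed, differences of dim probe sets are compressed. The values, 2.95 to 15.34, were used as deposited. Of 54675 probe sets, 41097 are annotated to 1 gene symbol. For 41043 of these the Entrez ID was found in the RefSeq table of GRCh38.p14. The symbol given there was used, whether or not it had changed.

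Genes with a mean below the 30th percentile were left out. The fit used limma 3.58.1 under R 4.3.3 (lmFit, then eBayes, with AICAR minus vehicle as the contrast), two-sided, with Benjamini-Hochberg adjustment over all 13842 genes tested; rose and fell are used at an adjusted p under 0.05. The fit was tested on simulated data. Precision is limited by the number of arrays, and the median SE of a difference was 0.0772. A shift common to most genes would have been removed by the normalization.

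The members and lists were chosen with earlier results of these data known. All 40 measured genes of the set are given with values; those that passed, or differed by at least 0.3, and 7 others fixed by name are given with each array's value, and some further genes were given so in view of their values. Alternatives changed the dim filter (none, or the 50th percentile), the scaling (quantile normalization or median centring), the variances (trend and robust), the probe sets (mean per gene), the threshold (adjusted p under 0.1), the model (replicate number as block) and the arrays (leaving out each in turn).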

Additional observations from a re-analysis of the deposited data

How the results depend on the processing

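Quantile normalization and median centring left 7 repair genes lower and 1 higher. Over all genes, 624 were lower and 854 higher with quantile normalization, and 748 and 570 with median centring. Without the dim filter 4 were lower, and over all genes 355 were lower and 368 higher. That fit tested 19775 genes and estimated the variances over all of them, and these changes were not separated. With the mean of all probe sets 39 repair genes were tested, without FANCB. Of these 6 were lower and 0 higher (limma), beside 692 and 549 of all 13842 genes tested. At an unadjusted p under 0.05, 8 of the 39 were lower and 1 higher. Over all genes, a trend with robust variances gave 1359 lower and 1107 higher, and an adjusted p under 0.1 gave 1173 and 1093. With each array left out in turn the repair genes numbered 1 to 5 lower and 0 to 1 higher, their median ran from -0.12 to -0.06, and all genes numbered 30 to 432 lower and 69 to 553 higher; the lowest counts came without a vehicle array, where the spread rests on the AICAR pair and the lone vehicle array is assumed to vary like it. The median over the repair genes was -0.11 to -0.06 in the other fits. Both scalings moved the median of all genes by less than 0.1 (0.02 and -0.01).

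The labels number the replicates 1 and 2 in both groups. With the replicate number as a block 6 repair genes were lower and 1 higher, and 586 and 577 of all genes, so the block moved no count by over 1.5 times; DNA2 lost its call. The deviations of same-numbered arrays from their group means correlated at -0.07, and nothing in the labels pairs them.

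The 8 genes that passed kept their sign in every fit that tested them. A probe set near the dim bound, such as that of FANCB, gives a compressed difference if background remains in the values.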
